A study of Mus musculus with 12 samples.

Results

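Kruppel-like factors are zinc finger transcription factors that bind GC boxes and CACCC boxes in promoters. KLF2 and KLF4 are known from endothelium, where laminar flow raises them and where they hold down adhesion molecules and other inflammatory genes. KLF15 is known in the heart as a regulator of fatty acid and amino acid metabolism and as a brake on hypertrophic growth, KLF6 and KLF10 as early response genes, and KLF5 as a factor that is low in the adult heart and active in vascular remodeling.

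Described here are 10 named family members, Klf2, Klf3, Klf4, Klf5, Klf6, Klf9, Klf10, Klf11, Klf13 and Klf15, out of 52858 genes in the expression table. They were chosen by name, as a gene family. RNA was sequenced from isolated hearts of male mice aged 3 to 5 months, perfused on a Langendorff apparatus, in which warm buffer is driven backward through the aorta into the coronary arteries. Slit2-Tg mice carry a full-length human Slit2 cDNA under the CMV promoter, and C57BL/6J mice were the controls. The line was made in C57 × CBA F1 oocytes, and the study names C57BL/6J as its background strain. Effects of the transgene and of any CBA sequence left in the line cannot be told apart. Hearts of the C57-IR and Slit2-IR groups were made globally ischemic for 20 min and then reperfused for 40 min (IR), and hearts of the C57-non-IR and Slit2-non-IR groups were perfused without interruption for the whole 80 min. There were 3 libraries in each of the 4 groups, described as independent samples, and the p-values measure the spread between these samples. The ischemia status of each library was read from the letters of its sample title.

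Levels are given as FPKM, a read count corrected for gene length and library depth. Libraries held 16601154 to 24841291 reads on genes, with 19.7% to 26.0% of them mitochondrial. The transgene is human, and whether its reads align to mouse Slit2 was not tested, so mouse Slit2 does not check the genotype labels. It was at 0.813 FPKM in Slit2-IR library 2 and at 0.0847 to 0.282 FPKM in the other libraries. The study itself reports higher Slit2 mRNA and protein in hearts of Slit2-Tg mice. Summed FPKM of 7 endothelial markers was 162, 169 and 172 in library 1 of the C57-IR group, of Slit2-non-IR and of Slit2-IR, against 207 to 267 in the other 9 libraries, and 0 of the 7 markers passed the limma test for IR at an adjusted or unadjusted p of 0.05. Cardiomyocyte markers summed to 12552 to 19090 FPKM in every library. Slit2-IR library 1 also stood apart in atrial markers, at 1758 FPKM against 26.6 to 246 in the others. All 6 atrial markers tested had a positive difference after IR, with a median of 1.46 on the log2(FPKM + 1) scale, and limma called 0 of them before or after adjustment. Among markers of 11 cell types limma called 0 for IR after adjustment. Before adjustment 2 of 5 fibroblast markers and 1 of 4 mesothelial markers were higher, against 7.93% of all genes tested. Of 3 tested blood markers 2 were lower, against 7.97%. The part of these markers in the results was not tested. In whole hearts, fewer cells of a type and less RNA per cell cannot be told apart.

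Promoter sequence is shown first for the 4 members whose levels carry most of what follows: Klf2 and Klf4, the most abundant, and Klf6 and Klf15, with the largest positive and negative differences between IR and non-IR hearts among the members that have a window in the table. Windows of 300 bases around the RefSeq start site (GRCm38.p6) matched 8 of the 10 members, all except Klf5 and Klf10. Sequences run 5′ to 3′ on the strand of the gene. The stretch for Klf2 is chr8:72318812-72319032 on the plus strand, with 2 GC boxes (GGGCGG) and the MEF2 site in capitals. That for Klf4 is chr4:55532476-55532725 on the minus strand, with 4 GC boxes on either strand, of which the first 2 overlap, and an E-box (CACGTG) in capitals. For Klf6 it is chr13:5861239-5861481 on the plus strand, with 4 CCAAT boxes, 1 GC box and 1 E-box in capitals. For Klf15 it is chr6:90462326-90462575 on the plus strand, with E-boxes alone in capitals.
Klf2: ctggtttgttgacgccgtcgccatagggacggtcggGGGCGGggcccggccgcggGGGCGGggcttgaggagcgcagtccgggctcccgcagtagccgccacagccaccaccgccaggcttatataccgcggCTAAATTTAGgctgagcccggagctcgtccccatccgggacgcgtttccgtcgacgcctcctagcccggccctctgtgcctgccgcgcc
Klf4: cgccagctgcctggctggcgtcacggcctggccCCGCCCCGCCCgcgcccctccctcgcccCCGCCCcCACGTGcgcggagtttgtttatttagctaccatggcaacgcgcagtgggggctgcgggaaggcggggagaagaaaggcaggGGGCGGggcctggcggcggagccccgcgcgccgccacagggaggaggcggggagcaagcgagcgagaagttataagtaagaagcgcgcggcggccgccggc
Klf6: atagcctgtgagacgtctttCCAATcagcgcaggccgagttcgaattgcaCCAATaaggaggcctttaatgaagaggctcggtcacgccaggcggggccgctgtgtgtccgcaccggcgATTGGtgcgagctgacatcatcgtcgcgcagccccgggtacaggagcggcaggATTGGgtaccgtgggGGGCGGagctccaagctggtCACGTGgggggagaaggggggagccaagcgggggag
Klf15: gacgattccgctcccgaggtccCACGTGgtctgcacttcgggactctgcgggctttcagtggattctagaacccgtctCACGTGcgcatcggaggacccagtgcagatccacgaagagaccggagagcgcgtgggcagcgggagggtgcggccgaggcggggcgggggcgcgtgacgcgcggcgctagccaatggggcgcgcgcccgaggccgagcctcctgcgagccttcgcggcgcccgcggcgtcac

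In all, 10 motifs were searched on both strands of all 32851 RefSeq promoter windows. The GC box (GGGCGG), which SP and KLF proteins bind, was in 7 of the 8 member windows and in 35.7% of all windows. The CACCC box (CCACCC) was in 3 of 8 and 31.5%, the core of the cyclic AMP response element (TGACG) in 6 of 8 and 20.8%, and the full element (TGACGTCA), which contains the core, in 0 of 8 and 1.79%. E-boxes (CACGTG) were in 4 of 8, those of Klf4, Klf6, Klf11 and Klf15, and in 7.15% of all windows. The CCAAT box (CCAAT) was in 5 of 8 and 37.4%, the AP-1 site (TGANTCA) in 1 of 8, that of Klf9, and 7.81%, and the TATA box (TATAAA) in 0 of 8 and 13.6%. The MEF2 site was in 1 of 8, that of Klf2, where it starts 118 bases before the start site, and in 3.19% of all windows, and the CArG box, the element of serum response factor, was in 0 of 8 and 1.63%. A GC box overlapped a CACCC box in Klf13, and a cyclic AMP response core overlapped an E-box in Klf15. The member windows were 63.0% to 77.7% GC, against a median of 52.7% over all windows, and the shares were not corrected for base composition. A match describes letters in the window, and binding was not measured.

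The 10 members differed widely in level, and Klf2 and Klf4 were the most abundant in every library. Mean FPKM over the 12 libraries was 202 ± 41.9 (SD, n = 12) for Klf2, 93.3 ± 24.7 for Klf4, 46.7 ± 19.7 for Klf6, 40.2 ± 8.5 for Klf9 and 17.9 ± 5.86 for Klf15. Below these came Klf10 at 9.6 ± 2.55, Klf13 at 6.79 ± 1.6, Klf3 at 4.39 ± 0.896, Klf11 at 4.31 ± 0.904 and Klf5 at 0.244 ± 0.226 FPKM. Neighbours in this order kept it in 11 or 12 of 12 libraries except in 2 places: Klf6 was above Klf9 in 6 of 12, and Klf3 above Klf11 in 6 of 12. Klf5 was below every other member in every library. Klf2 alone made up 42.3% to 52.0% of the summed FPKM of the 10 members, and Klf2, Klf4, Klf6 and Klf9 together 85.2% to 92.7%. The order was the same with upper-quartile scaling. The genes lie, in mm10, at chr8:72319033-72321656 (Klf2), chr4:55527143-55532466 (Klf4), chr19:23141226-23166911 (Klf9), chr15:38294413-38300707 (Klf10), chr7:63886351-63938915 (Klf13), chr5:64803388-64832901 (Klf3) and chr12:24651274-24662789 (Klf11), with Klf5, Klf6 and Klf15 placed where they are described. The plot of FPKM by group shows the value in every library.

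**Figure D1:**
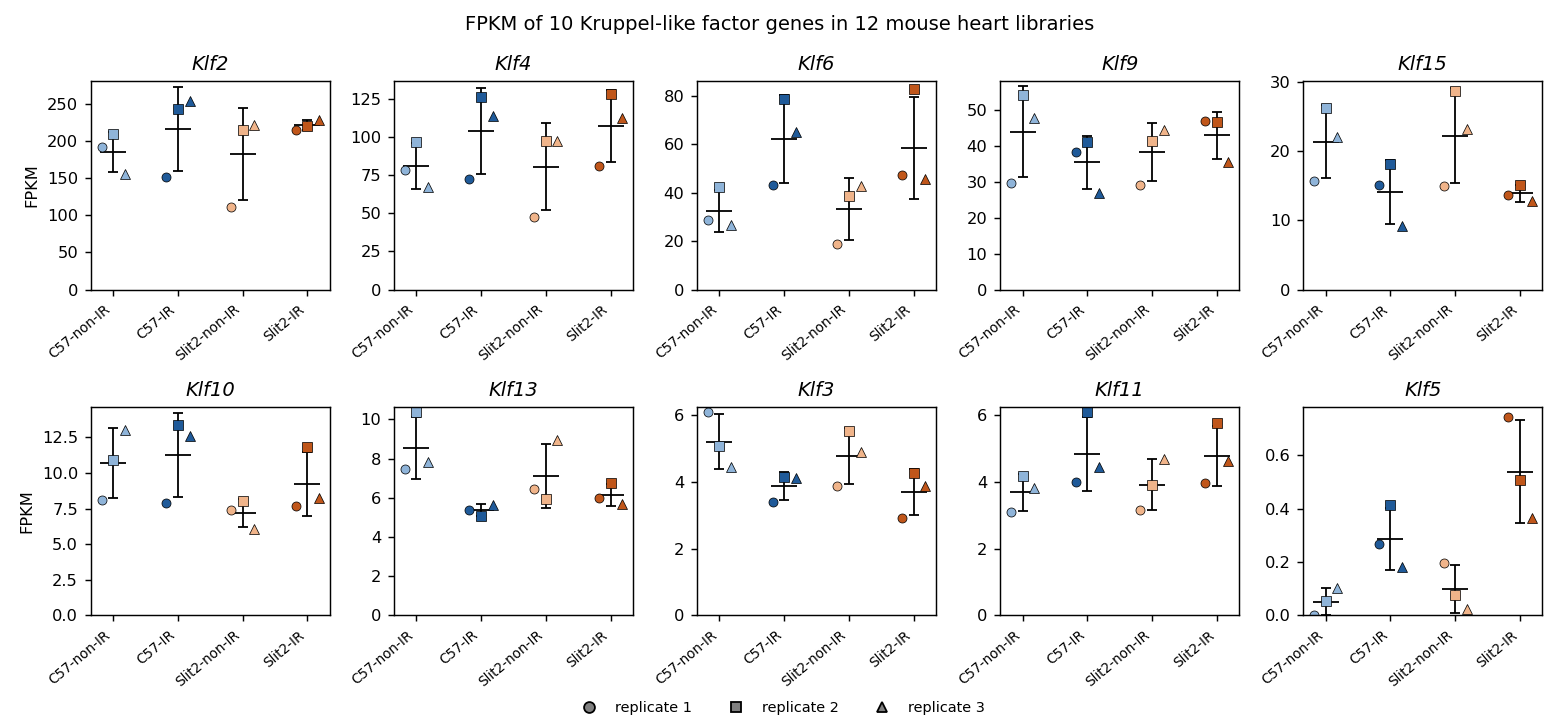
FPKM of each Kruppel-like factor gene (y axis, from 0, one panel a gene) in the 4 groups (x axis), with 1 point a library, the replicate number as the symbol, a line at the group mean and bars of 1 SD (n = 3). Klf5 is higher in the 3 IR than in the 3 non-IR libraries of each genotype, Klf6 likewise, and the IR and non-IR libraries overlap in both genotypes for Klf2 and Klf4.

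The first comparison asked which members differed after IR, over both genotypes. Klf5 was higher, and it was the 1 member of 10 called by limma at an adjusted p under 0.05, against 3.49% of the 15240 genes tested. It passed the filter on low values through its IR libraries, where it is the higher. Those held 7 to 26 reads a library, against 0 to 7 without IR. Neither this count nor the later counts that include Klf5 are support for a change of the family. With 10 reads required in every library Klf5 was not tested and 0 members were called, while with no filter beyond 1 read its adjusted p was 0.0327. At an unadjusted p under 0.05 there were 6 of 10 members, against 15.9% of all genes tested. Of these, 3 were higher, Klf5, Klf6 and Klf11, against 7.93% of all genes, and 3 lower, Klf13, Klf15 and Klf3, against 7.97%. Klf5 and Klf6 were higher in every IR library than in every non-IR library of the same genotype, in both genotypes, as 2.93% of all genes were (4.86% in either direction). The median difference of the members was 0.23 on the log2(FPKM + 1) scale, against 0.00 over all genes tested.

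Klf5, located at chr14:99298691-99313405 (mm10), encodes a factor known to be induced in vascular and cardiac injury. In C57-non-IR hearts it was at 0, 0.054 and 0.1 FPKM and in C57-IR hearts at 0.27, 0.41 and 0.18 FPKM. The Slit2-non-IR hearts had 0.2, 0.076 and 0.023 FPKM and the Slit2-IR hearts 0.74, 0.51 and 0.36 FPKM. All 6 IR libraries were above the non-IR libraries of their genotype, at a level where few reads stand behind a value: 16 reads in the 6 non-IR libraries and 90 in the 6 IR libraries. The highest value was in Slit2-IR library 1, which also had the highest atrial marker sum, at 1758 FPKM. Within each IR group the order of Klf5 followed that of the atrial marker sums, and within each non-IR group it ran the other way. The part of atrial content in these values was not tested. Scaled for depth, the ratio of reads was 5.57, with an exact binomial 95% interval of 3.25 to 10.2 that covers counting error only. Within C57BL/6J hearts it was 5.44 (2.08 to 18) and within Slit2-Tg hearts 5.75 (3.00 to 12.1). The limma difference was 0.39 ± 0.07 (SE) on the log2(FPKM + 1) scale, which understates a change at so low a level, with a Benjamini-Hochberg adjusted p of 0.0106 (0.00668 to 0.0327 over the alternatives in which it was tested).

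Klf6, at chr13:5861482-5870394, is an early response gene of injured tissue. It was at 28.5, 42.5 and 26.7 FPKM in C57-non-IR hearts and 43, 78.6 and 64.9 FPKM in C57-IR hearts. Values were 18.8, 38.8 and 42.6 FPKM in Slit2-non-IR hearts and 47.3, 82.9 and 45.6 FPKM in Slit2-IR hearts. The IR and non-IR libraries did not overlap within either genotype, with the nearest values 42.5 and 43.0 FPKM in C57BL/6J hearts. The difference was 0.86 ± 0.24 (SE) on the log2(FPKM + 1) scale, a 1.81-fold higher level with a 95% interval of 0.33 to 1.39 on the log2 scale, and the limma adjusted p was 0.0831 (unadjusted p = 0.00438), past the threshold before adjustment only. Over the alternatives the limma adjusted p ran from 0.0116, with the replicate block, to 0.204. Leaving out C57-IR library 1 gave 0.0484, and no other alternative than these brought it under 0.05.

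Klf11, a repressor in the TGF-beta pathway, showed the smallest of the differences that passed before adjustment. It had 3.08, 4.17 and 3.82 FPKM in C57-non-IR and 4.0, 6.1 and 4.44 FPKM in C57-IR hearts. In Slit2-Tg hearts it had 3.15, 3.91 and 4.68 FPKM without and 3.97, 5.75 and 4.63 FPKM after IR. The groups overlapped in both genotypes, and the difference was 0.27 ± 0.12 (SE), with a limma unadjusted p of 0.045 and an adjusted p of 0.299.

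Klf13, Klf15 and Klf3 lay on the other side of 0. Klf13, a regulator of cardiac gene expression in development, was at 7.46, 10.4 and 7.83 FPKM in C57-non-IR hearts and 5.39, 5.05 and 5.65 FPKM in C57-IR hearts. In Slit2-non-IR hearts it was at 6.43, 5.94 and 8.96 FPKM and in Slit2-IR hearts at 6.0, 6.78 and 5.66 FPKM. The groups did not overlap in C57BL/6J hearts and did in Slit2-Tg hearts. Over both genotypes the difference was -0.37 ± 0.11 (SE), with a limma adjusted p of 0.0892 (0.0525 to 0.205 over the alternatives).

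Klf15, at chr6:90462576-90475238, the member tied to cardiac metabolism, was at 15.7, 26.2 and 22 FPKM in C57-non-IR hearts and 15.1, 18.1 and 9.12 FPKM in C57-IR hearts. It was at 15, 28.6 and 23.1 FPKM in Slit2-non-IR hearts and 13.7, 15.1 and 12.8 FPKM in Slit2-IR hearts. In each genotype non-IR library 1, at 15.7 and 15 FPKM, lay within the IR range, and the other 2 non-IR libraries lay above it. The difference was -0.59 ± 0.19 (SE), a fold of 0.663, with a limma adjusted p of 0.133. For Klf3, a repressor that works through CtBP, the levels were 6.09, 5.07 and 4.46 FPKM in C57-non-IR and 3.38, 4.15 and 4.11 FPKM in C57-IR hearts. In Slit2-Tg hearts they were 3.87, 5.54 and 4.9 FPKM without and 2.92, 4.26 and 3.88 FPKM after IR. The C57BL/6J groups did not overlap and the Slit2-Tg groups did, and over both genotypes the difference was -0.32 ± 0.11 (SE; limma adjusted p = 0.145).

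The endothelial pair did not pass the test before or after adjustment with all 12 libraries. Klf2 was at 192, 209 and 156 FPKM in C57-non-IR hearts and 151, 244 and 254 FPKM in C57-IR hearts. In Slit2-Tg hearts it was at 111, 215 and 222 FPKM without and 215, 221 and 229 FPKM after IR. Its lowest 2 values were in C57-IR library 1 and Slit2-non-IR library 1, both among the 3 libraries with the lowest endothelial marker sums, while the third of these, Slit2-IR library 1, was at 215 FPKM, above the mean of 202 over the 12 libraries. The difference after IR was 0.27 ± 0.19 (SE), with an interval of -0.14 to 0.67 on the log2(FPKM + 1) scale (limma adjusted p = 0.562).

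Klf4 was at 78.5, 97 and 67.3 FPKM in C57-non-IR hearts and 72.3, 126 and 114 FPKM in C57-IR hearts. It was at 47.5, 97.4 and 97.2 FPKM in Slit2-non-IR hearts and 81.3, 128 and 113 FPKM in Slit2-IR hearts. The groups overlapped in both genotypes, and the difference was 0.40 ± 0.21 (SE), with an interval of -0.07 to 0.86 (limma adjusted p = 0.411). Leaving out the 3 libraries low in endothelial markers, a choice made after the marker sums were seen, gave 0.24 for Klf2 and 0.44 for Klf4, with limma adjusted p of 0.268 and 0.0845. Before adjustment 9 of 10 members passed in that fit, Klf2 and Klf4 among them, against 6 with all 12 libraries. The share over all genes was not counted there. The part of endothelial content in these values was not tested beyond that. Across the 12 libraries the log2 levels of Klf2 and Klf4 had a Pearson r of 0.93, a description over libraries that share group and marker differences.

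Klf9, a glucocorticoid- and thyroid hormone-responsive member, had 29.7, 54.2 and 48 FPKM in C57-non-IR and 38.3, 41.1 and 27 FPKM in C57-IR hearts. It had 29.2, 41.3 and 44.6 FPKM in Slit2-non-IR and 46.9, 46.7 and 35.5 FPKM in Slit2-IR hearts. These ranges overlapped throughout, and the difference was -0.05 ± 0.17 (SE; interval -0.43 to 0.32; limma adjusted p = 0.93). Klf10, the TGF-beta-inducible early gene, differed after IR by 0.19 ± 0.16 (SE; interval -0.16 to 0.53; limma adjusted p = 0.652), and its values are given with the genotype comparison.

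**Figure D2:**
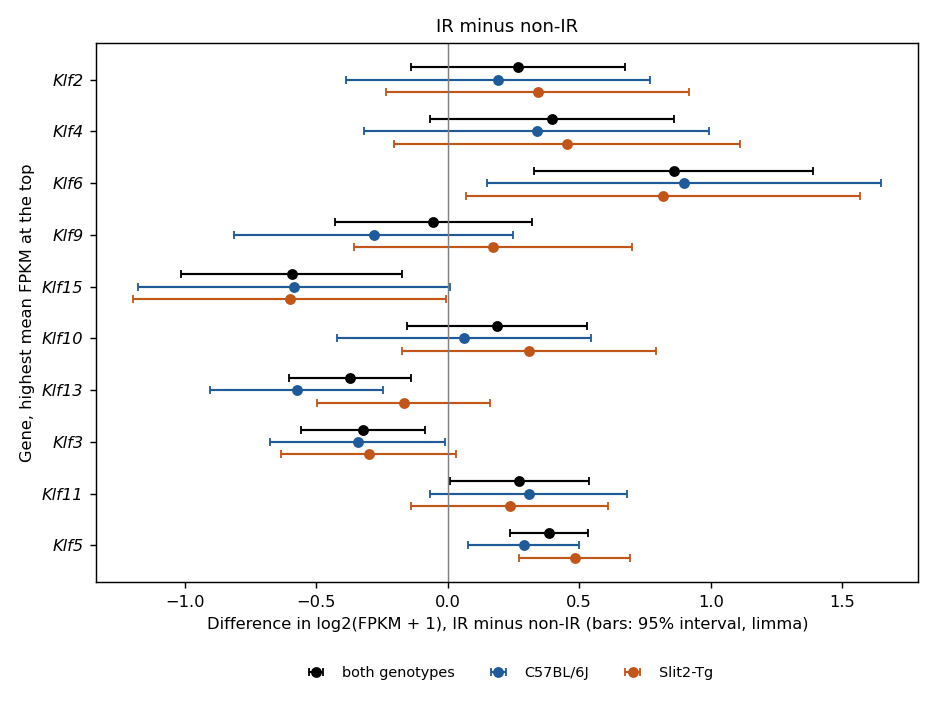
Difference between IR and non-IR hearts in log2(FPKM + 1) (x axis) for each Kruppel-like factor gene (y axis), over both genotypes and in each genotype, with 95% limma intervals. The intervals over both genotypes lie above 0 for Klf6, Klf5 and Klf11, below 0 for Klf15, Klf13 and Klf3, and span 0 for the other 4.

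Within each genotype no member passed after adjustment. In C57BL/6J hearts limma called 0 of 10 at an adjusted p under 0.05, against 0.459% of genes tested, and 4 of 10 before adjustment, against 8.96%. The 4 were Klf13 at -0.57 ± 0.15 (SE; unadjusted p = 0.00269), Klf5 at 0.29 ± 0.10, Klf6 at 0.90 ± 0.34 and Klf3 at -0.34 ± 0.15 in limma, and in all 4 the C57-IR and C57-non-IR libraries did not overlap, against 13.8% of genes. In Slit2-Tg hearts limma called 0 of 10 after adjustment, against 0.525%, and 3 of 10 before, against 11.2%: Klf5 at 0.48 ± 0.10, Klf6 at 0.82 ± 0.34 and Klf15 at -0.60 ± 0.27 (SE). Klf5 and Klf6 were the 2 without overlap, both higher, against 8.65% of genes higher and 16.9% in either direction. Klf5 passed the filter through its IR libraries, so the counts that include it are no support for a change of the family. With limma-voom on the recovered reads the counts were 0 after adjustment in both genotypes, and 5 and 3 before. The adjusted p of Klf5 in Slit2-Tg hearts was 0.0578 in limma, 0.0435 in the fit that paired libraries by replicate number, 0.0353 without C57-IR library 2 and 0.0386 without Slit2-IR library 3. In C57BL/6J hearts 2 of 10 members passed before adjustment without C57-IR library 2, 2 without C57-IR library 3, and 7 without the 3 libraries low in endothelial markers.

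The second question was whether the transgene went with different levels. Without IR, limma called 0 of 10 members, against 0.0394% of genes tested, and 1 of 10 before adjustment, against 3.19%. That 1 was Klf10, at 8.14, 10.9 and 13 FPKM in C57-non-IR hearts and 7.42, 8.03 and 6.1 FPKM in Slit2-non-IR hearts. All 3 Slit2-non-IR libraries were below the C57-non-IR libraries, with 8.03 and 8.14 FPKM the nearest pair, and 4.57% of all genes were lower without overlap (9.2% in either direction). The difference was -0.50 ± 0.22 (SE), with a limma unadjusted p of 0.0439 and an adjusted p of 1.0 (0.952 to 1.0 over the alternatives). With limma-voom 0 members passed after and 1 before adjustment, and in limma 0 passed before adjustment with no filter beyond 1 read, or without C57-non-IR library 2 or 3, Slit2-IR library 3 or Slit2-non-IR library 1. After IR, Klf10 was at 7.9, 13.4 and 12.6 FPKM in C57-IR and 7.65, 11.8 and 8.25 FPKM in Slit2-IR hearts, which overlapped, and the difference was -0.25 ± 0.22 (SE; limma adjusted p = 1.0).

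After IR, limma again called 0 of 10 members between the genotypes, against 0.0459% of genes, and 1 of 10 before adjustment, against 3.16%. This was Klf5, higher in Slit2-IR than C57-IR hearts by 0.25 ± 0.10 (SE; unadjusted p = 0.0227, adjusted p = 1.0), with groups that overlapped. Its highest value was in Slit2-IR library 1, the library highest in atrial markers, whose part in this difference was not tested. With a pseudocount of 0.1, a filter of 10 reads in every library, limma-voom or only the 6 libraries compared, and without C57-IR library 3, Slit2-IR library 1 or the 3 libraries low in endothelial markers, 0 of 10 passed before adjustment, and limma-voom called 0 after it. Klf13 was the 1 member without overlap, higher in Slit2-IR hearts, against 3.03% of genes higher and 6.47% in either direction, with 5.65 and 5.66 FPKM the nearest pair. The comparisons of IR in C57BL/6J and of genotype after IR share the C57-IR libraries. The 95% interval of the genotype difference after IR was -0.85 to 0.65 for Klf6 and -0.51 to 0.65 for Klf2, and differences within these bounds could not be told from none.

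The interaction, which tests whether the effect of IR depended on genotype, was called in 0 of 10 members by limma and by limma-voom, with 0% of all genes called by limma. Before adjustment it was 0 of 10 in both, against 1.86% of genes. Klf13 came closest, with -0.57 ± 0.15 (SE) after IR in C57BL/6J hearts, -0.17 ± 0.15 in Slit2-Tg hearts and an interaction of 0.41 ± 0.21 (limma unadjusted p = 0.0794, adjusted p = 1.0). Klf9 differed by -0.28 ± 0.24 in C57BL/6J and 0.17 ± 0.24 in Slit2-Tg hearts, with an interaction interval of -0.30 to 1.2. The intervals of all 10 members span 0.

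**Figure D3:**
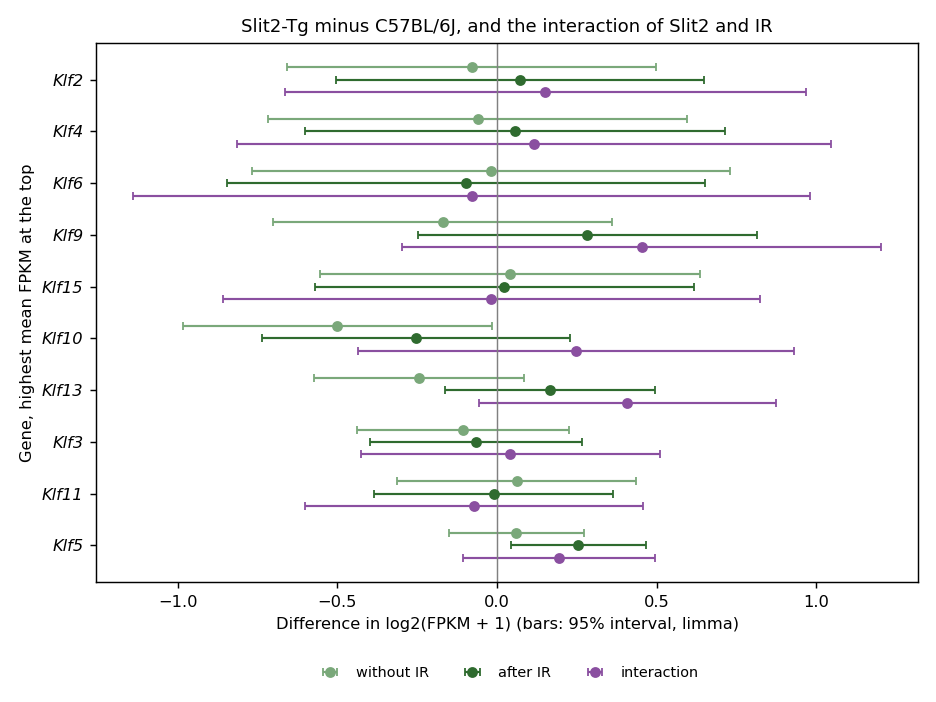
Slit2-Tg minus C57BL/6J difference in log2(FPKM + 1) (x axis) without and after IR, and the interaction of Slit2 and IR, for each Kruppel-like factor gene (y axis), with 95% limma intervals. Only the interval of Klf10 without IR and that of Klf5 after IR leave out 0.

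Of 16 other KLF and SP genes, 8 passed the filter, and limma called 0 of them after IR over both genotypes and 1 before adjustment, a smaller share than the 15.9% of all genes tested. That was Klf16, at 2.65 ± 0.536 FPKM in C57-non-IR, 3.39 ± 1.23 in C57-IR, 2.42 ± 0.572 in Slit2-non-IR and 3.86 ± 0.227 in Slit2-IR libraries (SD, n = 3), with a difference of 0.38 (limma adjusted p = 0.196). Sp1 and Sp3, the general GC box factors, had means of 4.96 and 7.85 FPKM over the 12 libraries and differences of -0.03 and -0.03 on the log2 scale.

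Of 16 regulators of KLF expression and stability, from the kinase cascade through MEF2 to ubiquitin ligases, limma called 0 after IR over both genotypes and 2 before adjustment, a smaller share than the 15.9% of all genes tested. Heg1, a receptor of the cerebral cavernous malformation complex that restrains Klf2 and Klf4, differed by -0.34 (limma adjusted p = 0.114), and Hdac5, a histone deacetylase that represses MEF2, by 0.32 (adjusted p = 0.17). Of 12 KLF co-regulators limma called 0 after and 0 before adjustment, with a median difference of 0.07.

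Endothelial genes were taken in 2 lists, those that KLF2 and KLF4 are known to hold down and those they raise. Of the 10 held down, 5 rose and 0 fell in limma at an adjusted p under 0.05, against 2.34% of all genes tested that were higher and 3.49% in either direction, with a median difference of 1.21 against 0.00 over all genes. Il6, an inflammatory cytokine, rose by 3.29 (adjusted p = 5.0e-04), from 0.291 ± 0.154 to 15.5 ± 9.84 FPKM in C57BL/6J and from 0.386 ± 0.291 to 11.2 ± 1.73 FPKM in Slit2-Tg hearts (SD, n = 3). Sele and Icam1, adhesion molecules for leukocytes, rose by 2.51 and 1.70 (limma adjusted p = 0.00151 and 0.00491). Of the 10 genes raised by KLF2 and KLF4, 1 rose and 0 fell, with a median of 0.03. It was Nppc, which encodes C-type natriuretic peptide, at 0.54 (adjusted p = 0.045), from 0.174 ± 0.143 to 0.82 ± 0.529 FPKM in C57BL/6J hearts, a low level. Plat, tissue plasminogen activator, differed by 0.58 (limma adjusted p = 0.0686) and Gja4, the gap junction protein connexin 37, by -0.23 (adjusted p = 0.237). Il6 and Nppc were low without IR, at levels where a gene can pass the filter through its IR libraries, as Klf5 did. Both lists were chosen with earlier results of these data known, so their counts are no independent support. The difference between the lists was not tested.

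Of 12 KLF15-linked metabolic and conduction genes, 0 rose and 1 fell in limma, against 2.34% and 1.15% of all genes (median -0.01). That was Prodh, proline dehydrogenase, which fell from 11.3 ± 2.6 to 8.23 ± 1.33 FPKM in C57BL/6J hearts and from 13.6 ± 2.26 to 7.54 ± 2.03 FPKM in Slit2-Tg hearts (SD, n = 3), a difference of -0.59 on the log2 scale (adjusted p = 0.0492). Slc2a4, the insulin-responsive glucose transporter, differed by -0.10 and Acadm, a fatty acid oxidation enzyme, by 0.14. Of 5 listed hypertrophic genes that KLF15 holds down, only 4 were tested. Limma called 0 of these after adjustment and 2 before, against 3.49% and 15.9% of all genes. They were Nppb at 1.40 (limma adjusted p = 0.0822) and Gata4 at 0.32 (adjusted p = 0.259). Nppa is in this list and among the atrial markers. Summed atrial markers were at 26.6 to 88.1 FPKM in C57-non-IR, 90.3 to 246 in C57-IR, 41.3 to 114 in Slit2-non-IR and 71.0 to 1758 in Slit2-IR libraries, and their part in the values of these genes was not tested. Of 5 KLF5-linked genes limma called 0 after adjustment and 1 before, against 3.49% and 15.9% of all genes. The 1 was Pdgfa at 0.17 (limma adjusted p = 0.262).

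Immediate-early genes, which respond fast to ischemic stress, were taken as a further list. It was chosen with earlier results of these data known, so it is no independent check of the IR labels. Of 19, 12 rose and 0 fell after IR, against 2.34% of all genes higher at that threshold. Before adjustment 18 passed, against 15.9% of all genes, and the median was 1.37. Nr4a3, an orphan nuclear receptor, rose by 3.72, Atf3, a stress-induced factor, by 2.55, Nr4a2 by 2.0 and Myc by 2.48 (limma adjusted p = 5.7e-05, 8.4e-04, 0.00151 and 0.00199). Of 9 TGF-beta early genes tested, 3 rose and 1 fell, against 2.34% and 1.15% of all genes. Tgif1 and Junb rose by 0.87 and 1.48, and Smad6, an inhibitory SMAD that flow also raises in endothelium, fell by 0.60 on the log2 scale (limma adjusted p = 0.00571). Of 10 glucocorticoid-responsive genes limma called 0 after adjustment and 4 before, against 3.49% and 15.9% of all genes. The 4 were Cdkn1a at 1.31 and Nfkbia at 0.93, and Fkbp5 at -0.87 and Ddit4 at -0.84. Between the genotypes, and for the interaction, limma called 0 genes of all these lists after adjustment. Before adjustment Gja4 passed without IR, at -0.36, and for the interaction, at 0.43.

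**Figure D4:**
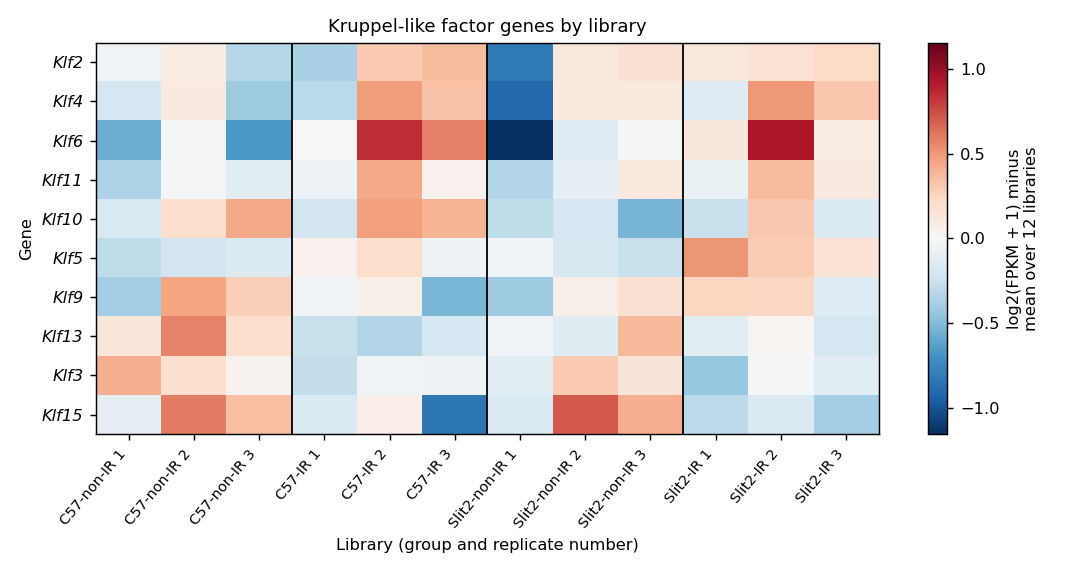
Log2(FPKM + 1) of each Kruppel-like factor gene (rows) in each library (columns, by group and replicate number), minus its mean over the 12 libraries, from blue (lower) to red (higher). Slit2-non-IR library 1 is the lowest library for Klf2, Klf4 and Klf6, and Klf6 is highest in C57-IR library 2 and Slit2-IR library 2.

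Libraries of 1 group did not move alike, as the heat map of library deviations shows. Slit2-non-IR library 1 had the lowest Klf2, Klf4 and Klf6 of all 12 libraries, at 111, 47.5 and 18.8 FPKM, and its summed level of the 10 members was 243 FPKM against 341 to 537 in the others. Patterns most like the members with the smallest p were sought over all genes tested by Pearson r over 12 libraries, which share group and depth. For Klf5 these were Dnaja4 (0.97), Tsc22d2 (0.96) and Maged1 (0.94), and for Klf6 they were Zfp36 (0.97), Slc10a6 (0.96) and Ppp1r15a (0.96). For Klf13 they were Hhipl1 (0.95), Jade2 (0.93) and Dclre1b (0.93), and for Klf15 they were Kdm5d (0.89), Zfp26 (0.88) and Kdsr (0.88).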

How the data were processed

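Total RNA libraries of 12 mouse hearts were made with a kit that does not mark strand, so reads of antisense transcripts cannot be told apart, and, per the labels, aligned with HISAT2 to mm10 (counter and versions not given in the sources used here). The authors deposited FPKM per gene. FPKM times gene length gave whole reads within 0.05 for 100% of values, scaled by median-of-ratios size factors. Genes were tested (15240) if 3 libraries had 10 reads or more at median depth and all libraries together 15. The main test was limma 3.58.1 (R 4.3.3) with trend on log2(FPKM + 1) over all 12 libraries and 4 groups, Benjamini-Hochberg adjusted over all genes, threshold 0.05, named genes being the members, at most 4 genes a list by smallest p, and the 3 most alike for 4 members. Alternatives were a pseudocount of 0.1, other filters, upper-quartile scaling, limma-voom on recovered reads, a replicate block, only the compared libraries and leaving out libraries. Same-numbered libraries deviated together (every r over 0.1) for IR in Slit2-Tg hearts (0.143 to 0.294) and genotype after IR (0.154 to 0.362), and in no other comparison of 2 groups made here. Those of C57-IR and Slit2-non-IR, not compared with each other, did so too (0.191 to 0.586). Both of these groups enter the test over both genotypes and the interaction. Tested on simulated data for IR over both genotypes (15111 genes), limma recovered 100% of 200 genes changed 4-fold, with 19 false calls. The changed genes were drawn from well-covered genes, with the same relative spread set for every gene. The simulation therefore does not measure how often smaller changes, or changes in genes with few reads such as Klf5, would be found. Members and lists were chosen with earlier results of these data known, and the values of 1 listed gene are not reported here. Depth limits Klf5 most, with 0 to 26 reads a library.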

Additional observations from a re-analysis of the deposited data

How the results depend on the processing

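Of 1172 log2 fold changes of members under the alternatives, 1096 kept their direction and side of the threshold, 5 newly passed and 71 changed sign, 60 of them when 1 library was left out. With 1 library left out, the members with a reversed sign had these lowest and highest values. For IR over both genotypes, Klf9 -0.18 to 0.035. For IR in C57BL/6J hearts, Klf10 -0.10 to 0.28. For IR in Slit2-Tg hearts, Klf9 -0.0079 to 0.30. For genotype without IR, Klf11 -0.049 to 0.18, Klf15 -0.16 to 0.29, Klf2 -0.25 to 0.24, Klf3 -0.20 to 0.010, Klf4 -0.23 to 0.28, Klf5 -0.0024 to 0.11, Klf6 -0.23 to 0.34, Klf9 -0.42 to 0.0098. For genotype after IR, Klf11 -0.13 to 0.14, Klf15 -0.24 to 0.22, Klf2 -0.17 to 0.21, Klf3 -0.15 to 0.058, Klf4 -0.19 to 0.24, Klf6 -0.37 to 0.091. For the interaction, Klf11 -0.19 to 0.077, Klf15 -0.28 to 0.18, Klf2 -0.17 to 0.32, Klf3 -0.076 to 0.17, Klf4 -0.22 to 0.30, Klf6 -0.44 to 0.13. Leaving out together the 3 libraries low in endothelial markers, chosen after seeing the data, reversed these. For IR in Slit2-Tg hearts, Klf9 -0.074. For genotype without IR, Klf2 0.24, Klf3 0.010, Klf4 0.28, Klf5 -0.0024, Klf6 0.34, Klf9 0.0098. For genotype after IR, Klf2 -0.14. For the interaction, Klf2 -0.39, Klf3 -0.027, Klf4 -0.28.

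Members called for IR over both genotypes were 1, but 0 with 10 reads in every library, since Klf5 is then not tested, 2 with the replicate block (Klf6 adjusted p = 0.0116), and 1 to 2 with 1 library left out (2 without C57-IR replicate 1). For IR in Slit2-Tg hearts they were 1 with the replicate block, against 0, and 0 to 1 with 1 library left out (1 without C57-IR replicate 2 or Slit2-IR replicate 3). The block changed no other call of a member. Before adjustment, IR over both genotypes gave 6 members, 9 without the 3 libraries and 5 to 8 with 1 library left out. At that level IR in C57BL/6J hearts gave 4 members, 7 without the 3 libraries and 2 to 5 with 1 library left out (2 without C57-IR replicate 2 or 3). Genotype without IR gave 1, 0 with no filter and 0 to 1 with 1 library left out (0 without C57-non-IR replicate 2 or 3, Slit2-IR replicate 3 or Slit2-non-IR replicate 1). Genotype after IR gave 1, and 0 with a pseudocount of 0.1, 10 reads in every library, limma-voom, only the 6 libraries compared or without the 3 libraries, and 0 to 1 with 1 library left out (0 without C57-IR replicate 3 or Slit2-IR replicate 1). The interaction gave 0, and 0 to 1 with 1 library left out (1 without Slit2-non-IR replicate 3 or C57-non-IR replicate 1). The causes were not tested.

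Over all genes, IR over both genotypes called 532, 299 with no filter and 329 to 714 with 1 library left out. IR in C57BL/6J hearts called 70, 7 with no filter, 10 with only the 6 libraries, 32 with limma-voom, 174 with the block, 294 without the 3 libraries and 3 to 254 with 1 left out. IR in Slit2-Tg hearts called 80, 19 with no filter, 121 with limma-voom, 202 with the block, 23 without the 3 libraries and 4 to 179 with 1 left out. Genotype without IR called 6, 10 with a pseudocount of 0.1, 11 with no filter, 3 with 10 reads in every library, 2 with the block and 1 to 14 with 1 left out. Genotype after IR called 7, 3 with 10 reads in every library, 4 with only the 6 libraries and 4 to 12 with 1 left out. The interaction called 0, 4 with no filter, 6 without the 3 libraries and 0 to 1 with 1 left out.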
